A study of Danio rerio with 6 samples.

Results

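The genes described are 6 genes of sprouting and vessel stability in sorted zebrafish cells, namely apln, aplnra, aplnrb, esm1, angpt1 and angpt2a. They were taken by exact gene symbol from the deposited table of read counts, in which all 6 were found among 29361 gene rows, and all 6 passed the low-count filter that left 19381 genes for testing. Both genotypes were sampled at 48 hours after fertilisation, as 3 libraries of embryos carrying the uq4bh allele of mafba, called mutant here, and 3 wild-type libraries. All 6 libraries carried the kdrl eGFP transgene, a reporter in which a Vegf receptor promoter marks endothelial cells and some of their blood-forming relatives. The samples are labelled as purified endothelial cells, but the protocol text speaks of brains and of a pdgfr beta reporter, which leaves the tissue and the sorting gate unclear. The RNA was amplified ahead of sequencing. The labels do not state whether the mutant embryos were homozygous, how many embryos went into a library, or whether the 3 libraries of each genotype are independent pools of embryos. The p-values therefore rest on the differences among these libraries, part of which can be technical. The comparison asks whether these genes differ with the mafba mutation, mafba being a large Maf family transcription factor gene that the series title places downstream of Vegfc.

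Apelin is a small secreted peptide that acts on G protein-coupled receptors, of which zebrafish has the paralogues Aplnra and Aplnrb. In sprouting vessels the cell at the front, the tip cell, makes apelin, and esm1, which encodes the secreted proteoglycan endocan, is a further tip cell gene induced by Vegf in mammals. Angiopoietins are ligands of the Tie receptors on endothelial cells, and in mammals Angpt1 activates Tie2 and steadies the vessel, whereas Angpt2 can block that signal and loosens it.

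Reads on genes numbered from 43859736 to 52923490 per library. Levels are given as CPM (counts scaled to the same number of reads per library), with library sizes scaled by TMM factors. The markers of the labelled cell type were present: kdrl lay between 34.3 and 54.8 CPM, and 20 endothelial markers summed to 779 to 1189 CPM. The markers of other cells were also present, with sums of 7085 to 17147 CPM for 11 neutrophil genes, 5888 to 10293 CPM for 12 epidermal genes and 2634 to 8325 CPM for 18 skeletal muscle genes. The sums were 1639 to 4302 CPM for 12 erythrocyte genes and 1320 to 2352 CPM for 10 kidney genes. Each of these sums exceeded the endothelial sum in every library. The sums do not give shares of cells, because the lists differ in their number of genes and in the level of single genes. The neutrophil gene lyz alone had a mean of 5835 CPM and the epidermal gene krt4 3523 CPM. The highest endothelial marker, vsg1, had a mean of 117 CPM. The 20 mural and mesenchyme genes summed to 855 to 1133 CPM in mutant and 839 to 987 CPM in wild-type libraries, the highest of them being the collagen gene col1a1a with a mean of 445 CPM. Within that list, pdgfrb, a receptor gene used as a marker of mural cells, stood at 0.319, 1.16 and 0.663 CPM in mutant libraries. In wild-type libraries it stood at 0.566, 0.664 and 0 CPM. In such bulk samples, fewer cells of a type and less RNA per cell cannot be told apart. The RNA level of mafba itself, at 31.0, 39.6 and 38.6 CPM in mutant libraries and 32.9, 45.8 and 33.3 CPM in wild-type libraries, does not check the genotype, because nothing used here says where in the gene the lesion lies.

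None of the 6 genes passed the test between the genotypes. The mutant and wild-type libraries overlapped for each gene, and 0 of the 6 had an adjusted p under 0.05 in the quasi-likelihood test of edgeR, adjusted by Benjamini-Hochberg over all 19381 genes, where 0% of all genes passed. At an unadjusted p under 0.05 the count was also 0 of 6, where 1.57% of all genes lay under that value. DESeq2 and limma-voom also called 0 of the 6, and 0 genes of the whole table. Complete separation of the 3 mutant from the 3 wild-type libraries was seen for 0 of the 6 genes, beside 3.38% of all tested genes that were separated upwards and 3.36% downwards. Fitted log2 differences, mutant minus wild-type, were below 0 for 5 of the 6 genes, with a median of -0.32. Over all tested genes 50.7% had a value below 0 and the median was -0.0047. With single libraries left out, between 4 and 6 of the 6 genes were fitted lower. The 6 genes were chosen with earlier results of these data known and share the same libraries, so they do not count as separate observations. Of the 20 endothelial markers, 14 were fitted lower and 6 higher, with a median log2 difference of -0.099.

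**Figure D1:**
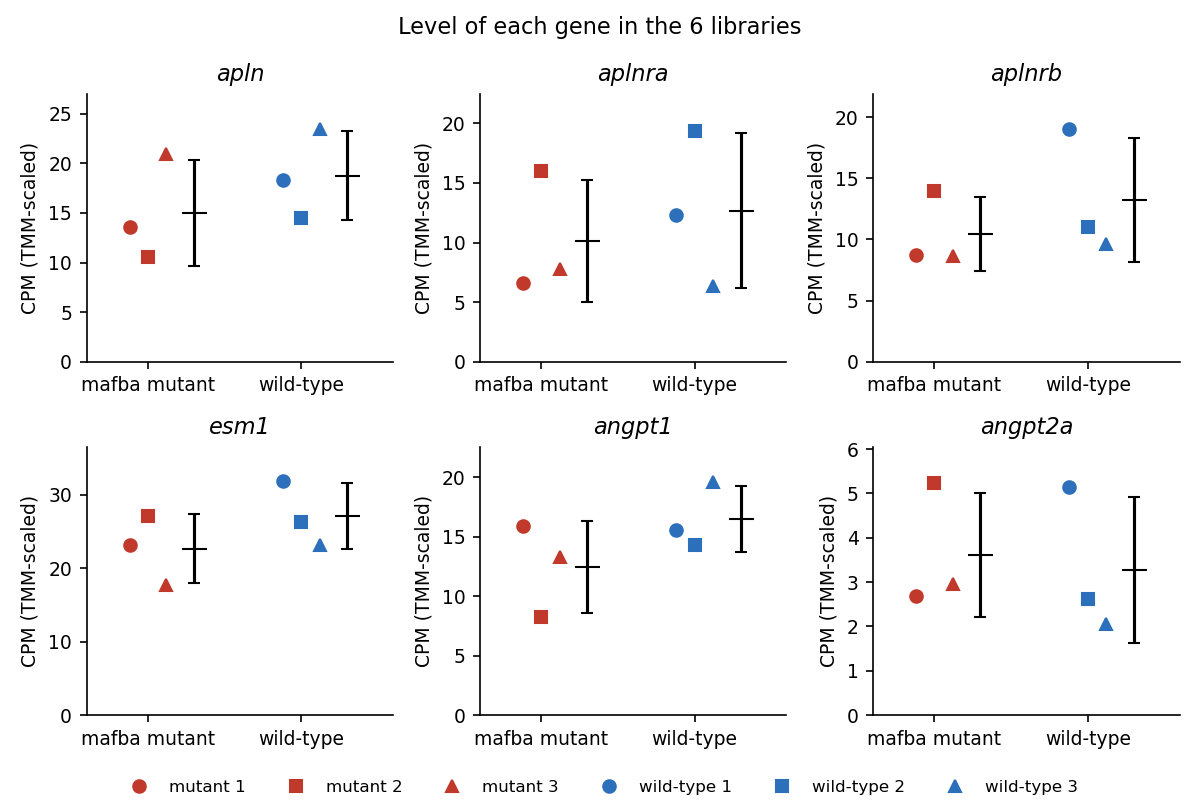
Level of each gene in CPM (vertical axis, TMM-scaled, starting at 0) in the 3 mafba mutant libraries (red) and the 3 wild-type libraries (blue), with marker shapes for library numbers and black bars for mean ± SD. The 2 genotypes overlap in every panel, and the lowest and highest library of aplnra in the wild-type group differ 3.04-fold.

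The ligand gene apln stood at 13.6, 10.5 and 20.9 CPM in mutant libraries 1, 2 and 3 and at 18.3, 14.5 and 23.4 CPM in wild-type libraries 1, 2 and 3. Library 3 was the highest and library 2 the lowest in each genotype, and mutant 3 lay above wild-type 1 and 2. The means were 15.0 ± 5.33 CPM in mutant and 18.7 ± 4.50 CPM in wild-type libraries (SD, n = 3 each), and the log2 difference was -0.32 ± 0.30 (SE). Its 95% interval ran from 0.512 to 1.25 times the wild-type level (edgeR, adjusted p = 1.00). Leaving out single libraries gave values from -0.64 without mutant 3 to -0.12 without mutant 2. Between same-numbered libraries the log2 differences, mutant minus wild-type, were -0.43, -0.46 and -0.17. For aplnra, aplnrb, esm1, angpt1 and angpt2a such differences had mixed signs. The labels tie these numbers to nothing shared, so they were not taken as pairs. The share of all genes with every such difference below 0 was not counted.

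The receptor gene aplnra was the most variable of the 6 between libraries of one genotype. It stood at 6.59, 16.0 and 7.78 CPM in mutant libraries and at 12.3, 19.4 and 6.36 CPM in wild-type libraries. Library 2 was the highest in each genotype, and the lowest value of all was wild-type 3. The spread within genotype, as a pooled SD of log2 CPM, was 0.74 for aplnra, higher than in 94.95% of 3109 genes whose mean CPM lay within 1.5-fold of it. The means were 10.1 ± 5.14 CPM in mutant and 12.7 ± 6.51 CPM in wild-type libraries (SD, n = 3 each), with a log2 difference of -0.32 ± 0.43 (SE) and a 95% interval of 0.418 to 1.53 times the wild-type level (edgeR, adjusted p = 1.00). The sign turned to 0.12 without wild-type 2, and the value was -0.82 without mutant 2.

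The sum of 18 skeletal muscle markers moved across the libraries in a similar order to aplnra. It was 4081, 5786 and 2634 CPM in mutant and 5356, 8325 and 2811 CPM in wild-type libraries, so that library 2 was again the highest in each genotype, while mutant 1 and 3 stood in the other order. This likeness was noticed after the values were seen, and the part of this in the level of aplnra was not tested. The highest of these markers was actc1b, a muscle actin gene, at 794, 1242 and 628 CPM in mutant and 1178, 1807 and 638 CPM in wild-type libraries. Of the 18 muscle genes, 17 were fitted lower in mutant libraries (median log2 difference -0.36), beside 50.7% of all tested genes. In the edgeR test 0 of the 18 passed or had an unadjusted p under 0.05, beside 1.57% of all tested genes under that value. Markers of the same tissue can vary together and do not count as separate observations.

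The second receptor gene, aplnrb, did not follow the same order of libraries. It stood at 8.76, 14.0 and 8.63 CPM in mutant and at 19.0, 10.99 and 9.61 CPM in wild-type libraries. Wild-type 1 was the highest library and the other 5 lay between 8.63 and 14.0 CPM, with the genotypes interleaved. Its means were 10.5 ± 3.04 CPM in mutant and 13.2 ± 5.07 CPM in wild-type libraries (SD, n = 3 each), a log2 difference of -0.34 ± 0.33 (SE), and the 95% interval spanned 0.479 to 1.31 times the wild-type level (edgeR, adjusted p = 1.00). Without wild-type 1 it was 0.022. The ratio of aplnra reads to aplnrb reads, which no scaling of libraries affects, was 0.752, 1.15 and 0.902 in mutant and 0.649, 1.76 and 0.661 in wild-type libraries. The mean log2 ratios were -0.12 ± 0.31 in mutant and -0.13 ± 0.82 in wild-type libraries (SD, n = 3 each). As the receptor genes are paralogues, reads that align to both could be lost or split in counting, and the setting for such reads was not stated.

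The tip cell gene esm1 was the steadiest of the 6. It stood at 23.2, 27.1 and 17.8 CPM in mutant and at 31.9, 26.3 and 23.1 CPM in wild-type libraries. Mutant 3 was the lowest and wild-type 1 the highest, while mutant 2 exceeded wild-type 2 and 3. The means were 22.7 ± 4.69 CPM in mutant and 27.1 ± 4.44 CPM in wild-type libraries (SD, n = 3 each), a log2 difference of -0.26 ± 0.23 (SE) whose 95% interval ran from 0.593 to 1.18 times the wild-type level (edgeR, adjusted p = 1.00). Its pooled SD within genotype was 0.27 log2 units, close to the median of 0.28 for 2934 genes of like level. The values with single libraries left out ran from -0.41 without mutant 2 to -0.11 without mutant 3, all below 0.

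The endothelial marker sum stood at 997, 945 and 779 CPM in mutant and at 1189, 824 and 885 CPM in wild-type libraries. Mutant 3 was the lowest and wild-type 1 the highest, as for esm1, but the libraries between them stood in another order. The part of this in the level of esm1 was not tested. Per 1000 reads on these 20 markers, esm1 had 23.2, 28.7 and 22.8 reads in mutant and 26.8, 32.0 and 26.1 reads in wild-type libraries. The genotypes still overlapped on this scale, since mutant 2 lay above wild-type 1 and 3. With the marker sum as library size, the log2 difference of esm1 was -0.18 ± 0.25 (SE) and that of apln -0.21 ± 0.37. On the same scale it was -0.29 ± 0.47 for aplnra, -0.21 ± 0.34 for aplnrb, -0.33 ± 0.35 for angpt1 and 0.29 ± 0.53 for angpt2a, and the median over all genes moved to 0.067.

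Of the angiopoietin genes, angpt1 had the fitted difference farthest from 0 among the 6 genes. It stood at 15.9, 8.21 and 13.3 CPM in mutant and at 15.6, 14.3 and 19.6 CPM in wild-type libraries. Mutant 2 was the lowest library and mutant 1 lay above wild-type 1 and 2, so the genotypes overlapped. The means were 12.5 ± 3.89 CPM in mutant and 16.5 ± 2.75 CPM in wild-type libraries (SD, n = 3 each), farther apart than either SD, and the log2 difference was -0.40 ± 0.29 (SE; edgeR, unadjusted p = 0.188, adjusted p = 1.00). The 95% interval ran from 0.489 to 1.17 times the wild-type level. Without mutant 2 the difference was -0.18, and in the other 5 cases with a library left out it lay between -0.61 and -0.26. Mutant 2 was also the library with the highest sum of neutrophil markers, 17147 CPM, beside 7085 to 11500 CPM in the other 5. Its sum of 12 erythrocyte markers was the highest as well, at 4302 CPM. Its sum of 10 heart markers was the lowest, at 21.1 CPM. Among those 10, 2 had no reads in any library, and nfatc1, the highest on average, stood at 12.3 CPM in mutant 2. The sum of 20 mural and mesenchyme genes was not at an extreme in mutant 2, at 1078 CPM. It was 1133 and 855 CPM in mutant 1 and 3 and 839 to 987 CPM in wild-type libraries. These sums were picked out after the values were seen, and the part of each in the level of angpt1 was not tested.

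Transcripts of angpt2a were read between 107 and 220 times per library. Its levels were 2.68, 5.22 and 2.96 CPM in mutant and 5.14, 2.61 and 2.06 CPM in wild-type libraries. Each genotype had 1 high library, mutant 2 and wild-type 1, and the other 4 lay between 2.06 and 2.96 CPM. The means were 3.62 ± 1.396 CPM in mutant and 3.27 ± 1.64 CPM in wild-type libraries (SD, n = 3 each), and the log2 difference of 0.15 ± 0.51 (SE) had a 95% interval of 0.511 to 2.40 times the wild-type level (edgeR, adjusted p = 1.00). Its sign turned without mutant 2 (-0.21) and without wild-type 3 (-0.098), and it was 0.63 without wild-type 1.

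The balance of the angiopoietins within a library, as angpt1 reads per angpt2a read, was 5.92, 1.57 and 4.50 in mutant and 3.03, 5.48 and 9.50 in wild-type libraries. The libraries with the lowest ratio, mutant 2 and wild-type 1, were those with high angpt2a, and the genotypes overlapped. The mean log2 ratio was 1.80 ± 1.01 in mutant and 2.43 ± 0.82 in wild-type libraries (SD, n = 3 each), a difference of -0.64 that is smaller than either SD. As a ratio over members it was given no test.

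**Figure D2:**
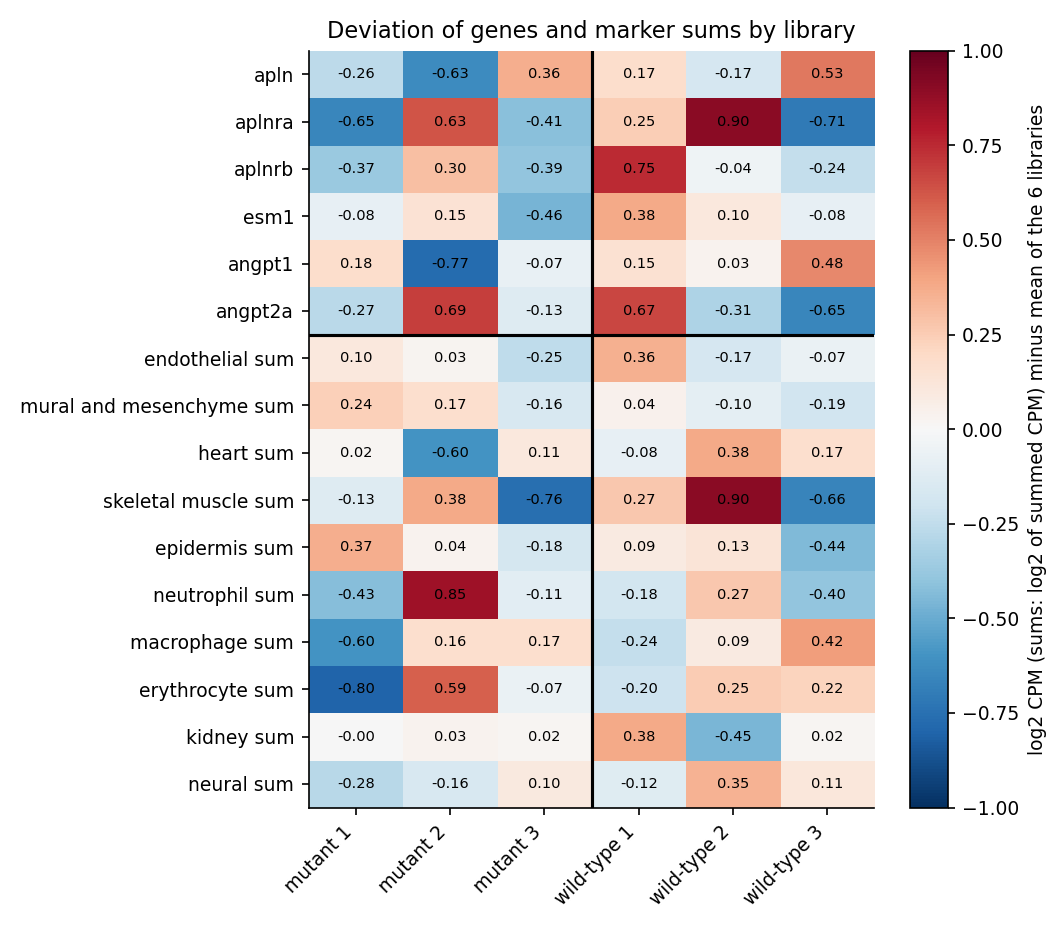
Heat map of the log2 CPM of each of the 6 genes (upper rows) and of the log2 summed CPM of 10 marker lists (lower rows) in each library (columns, mutant left), as the deviation from the mean of the 6 libraries; red is above and blue below that mean. The aplnra and skeletal muscle rows both have wild-type 2 at 0.90, and apln and angpt1 share mutant 2 as their lowest library, at -0.63 and -0.77.

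Counting error was small beside the spread between libraries. At the lowest read number of each gene, counting alone gives a coefficient of variation of 9.67% for angpt2a and of 3.09% to 5.68% for the other 5 genes. The coefficients observed between libraries were 38.6% in mutant and 50.2% in wild-type libraries for angpt2a, and 20.7% in mutant and 16.4% in wild-type libraries for esm1, the lowest pair of the 6 genes. These counting values do not cover amplification.

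**Figure D3:**
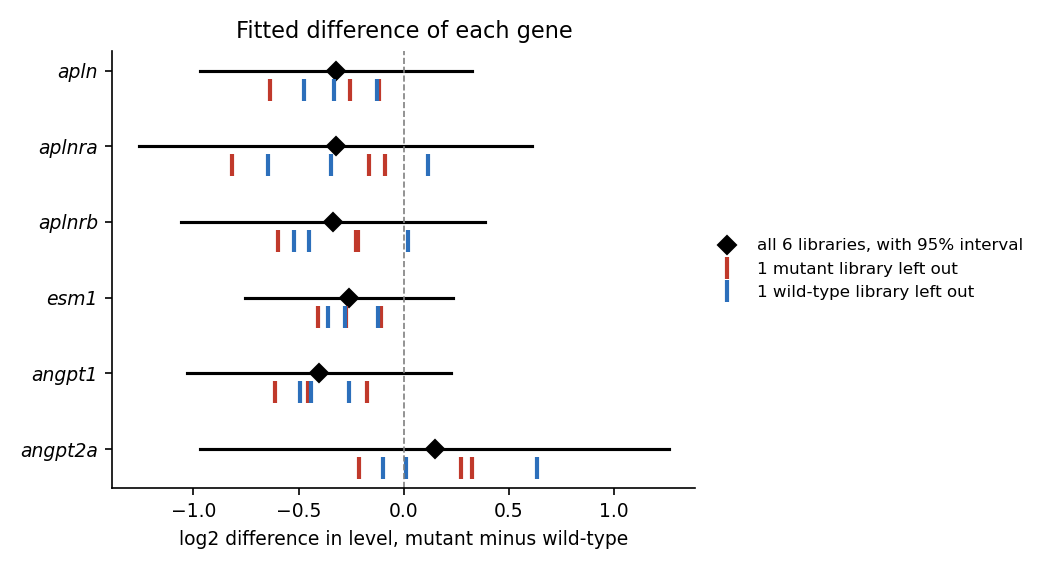
Fitted log2 difference of each gene, mutant minus wild-type (horizontal axis), from all 6 libraries with its 95% interval (black), and with 1 mutant (red) or 1 wild-type (blue) library left out (ticks below). Each interval spans 0, and the ticks of aplnra, aplnrb and angpt2a lie on both sides of 0.

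Of 12 listed genes of the apelin pathway, the 3 above included, 10 were found in the table and 8 were tested, with 0 passing the edgeR test in either direction, 0 at an unadjusted p under 0.05, 3 fitted higher and 5 lower and a median log2 difference of -0.17. The second ligand gene apela, which encodes Toddler and is listed as si:ch211-42i9.4, stood at 1.53, 2.80 and 0.714 CPM in mutant and 1.51, 0.962 and 0 CPM in wild-type libraries. Its log2 difference of 1.03 ± 1.34 (SE) carries little information at this depth. Of the genes for the furin proteases, which cut the apelin precursor in mammals, furinb stood at 5.59, 5.70 and 5.29 CPM in mutant and 8.30, 6.55 and 6.76 CPM in wild-type libraries.

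All 3 mutant libraries lay below all 3 wild-type libraries for furinb, with a log2 difference of -0.38 ± 0.33 (SE; edgeR, adjusted p = 1.00), and such a downward separation was seen in 3.36% of all tested genes. Its paralogue furina differed by 0.06 ± 0.22. The genes of the beta-arrestins, which bind activated receptors, differed by 0.08 ± 0.35 for arrb2a and -0.02 ± 0.16 for arrb2b. The third, arrb1, had 0.574, 0 and 0.952 CPM in mutant libraries and no reads in wild-type libraries, and lay below the low-count filter. The listed genes aplnr2 and mme were not matched to a row.

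Of the angiopoietin and Tie genes, angpt1 and angpt2a included, 10 of 12 were found and 9 tested. In the edgeR test 0 passed in either direction and 0 had an unadjusted p under 0.05. Fitted values were higher for 5 and lower for 4, with a median log2 difference of 0.09. The receptor gene tek, which encodes Tie2, stood at 32.8, 32.5 and 18.7 CPM in mutant and 38.0, 25.2 and 15.8 CPM in wild-type libraries, a log2 difference of 0.09 ± 0.31 (SE). For tie1, the gene of the partner receptor, the levels were 36.4, 28.1 and 21.9 CPM in mutant and 46.7, 24.8 and 22.3 CPM in wild-type libraries, a difference of -0.12 ± 0.29. Library 3 was the lowest in each genotype for both receptor genes and library 1 the highest.

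The gene dok2, whose product docks on activated Tie2 in mammals, had the smallest p of this list, with 6.40, 4.77 and 9.93 CPM in mutant and 8.84, 11.8 and 10.7 CPM in wild-type libraries and a log2 difference of -0.57 ± 0.34 (SE; edgeR, unadjusted p = 0.121). The phosphatase gene ptprb, whose product restrains Tie2, differed by -0.25 ± 0.21. Foxo1, a transcription factor that drives Angpt2 in mammals, has the paralogues foxo1a and foxo1b here, which differed by 0.10 ± 0.40 and 0.35 ± 0.29. Further angiopoietin genes were scarce, with angpt2b at 0.893, 0.617 and 0.340 CPM in mutant and 0, 0 and 1.39 CPM in wild-type libraries, and angpt4 between 0 and 0.828 CPM and below the filter. The listed genes svep1 and grb14 were not matched to a row.

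**Figure D4:**
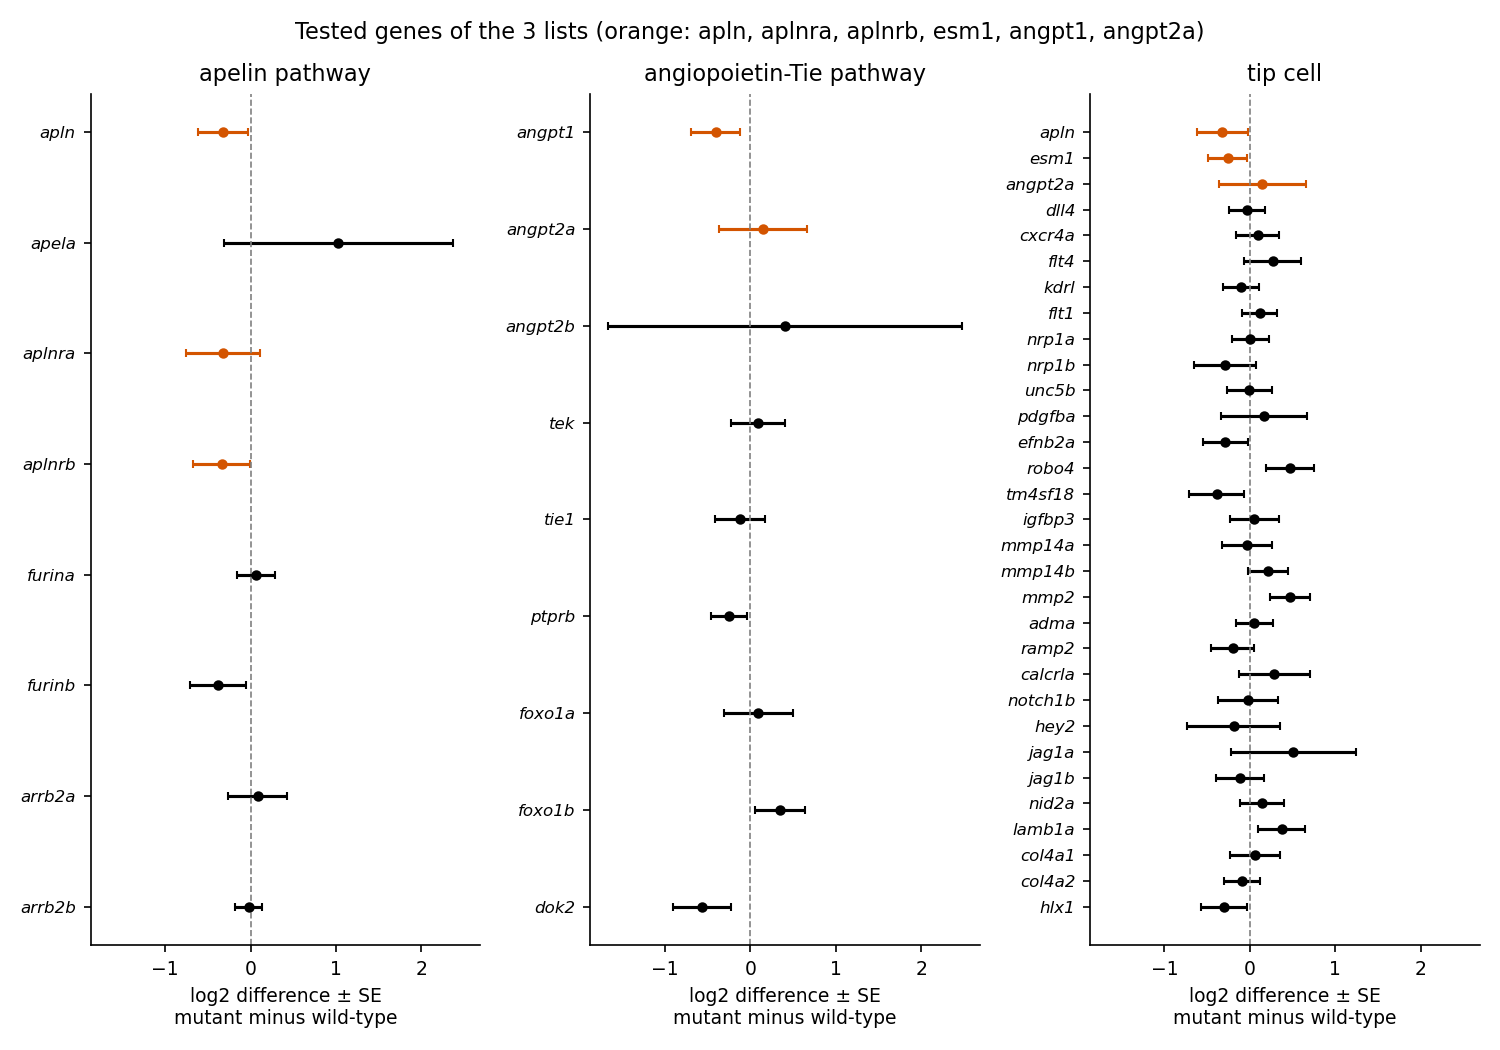
Log2 difference, mutant minus wild-type, with its SE (horizontal axis) for each tested gene of the apelin, angiopoietin-Tie and tip cell lists, with the 6 genes of interest in orange. Values lie on both sides of 0 in each list, from -0.57 for dok2 to 1.03 for apela, and 0 genes passed the test.

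Among tip cell genes, 31 of 36 were found and all 31 tested, with 0 passing the edgeR test, 0 at an unadjusted p under 0.05, 16 fitted higher, 15 lower and a median of 0.0019. The 6 with the most reads were lamb1a, flt1, mmp2, efnb2a, dll4 and col4a2. Of these, the gelatinase gene mmp2 had the smallest p of the list, with 123, 118 and 70.3 CPM in mutant and 86.8, 85.2 and 54.0 CPM in wild-type libraries and a log2 difference of 0.47 ± 0.24 (SE; edgeR, unadjusted p = 0.0711). Mutant 3 lay below wild-type 1 and 2, so the genotypes overlapped. The laminin gene lamb1a differed by 0.37 ± 0.27 and robo4, an endothelial Roundabout receptor gene, by 0.47 ± 0.28. The 6 libraries stood in the same order for mmp2, for lamb1a and for the sum of the 20 mural and mesenchyme genes. That sum was 1133, 1078 and 855 CPM in mutant and 987, 896 and 839 CPM in wild-type libraries. This likeness was noticed after the values were seen, and its part in the levels of mmp2 and lamb1a was not tested. The gene tm4sf18, which tunes the Vegf response of tip cells in zebrafish, stood at 5.14, 8.48 and 6.99 CPM in mutant and 9.61, 7.70 and 9.63 CPM in wild-type libraries, a difference of -0.39 ± 0.32. The Vegf decoy receptor gene flt1 differed by 0.11 ± 0.21, the Notch ligand gene dll4 by -0.03 ± 0.21, the ephrin gene efnb2a by -0.29 ± 0.26 and the collagen gene col4a2 by -0.10 ± 0.21.

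To place the 6 genes among the rest, the genes with the most similar profile across the 6 libraries were listed, as Pearson's r of log2 CPM among the other genes with a mean of at least 5 CPM, which left 11208 candidates for angpt2a and 11207 for each of the other 5. This is a description of 6 shared libraries, in which many genes vary together. For apln the closest were cmyb (r = 0.996), PHLDB2_(2_of_2) (0.992) and pex5 (0.990), and 203 genes exceeded 0.9. For aplnra they were actn3b (0.987), CR847973.1 (0.983) and MPRIP_(1_of_4) (0.983), and for aplnrb NGRN (0.989), synrg (0.963) and ppp1r3ab (0.954). For esm1 they were anapc11 (0.993), aurkaip1 (0.992) and srprb (0.987), for angpt1 bin3 (0.995), si:dkey-60d5.3 (0.994) and CLIP1_(2_of_2) (0.986), and for angpt2a tnnt2e (0.997), taf1a (0.992) and pcmt (0.980). The 6 sets of 3 closest genes held 18 different genes. Genes above 0.9 numbered 113 for angpt1, 89 for aplnra, 73 for angpt2a, 67 for esm1 and 48 for aplnrb, beside 203 for apln. How many would exceed 0.9 by chance with 6 libraries was not tested. The profile of cmyb shows the likeness, at 214, 171 and 332 CPM in mutant and 288, 231 and 344 CPM in wild-type libraries, with library 3 the highest and library 2 the lowest in each genotype as for apln.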

How the data were processed

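RNA of sorted cells of zebrafish embryos was sequenced in 3 mafba mutant and 3 wild-type libraries. The authors deposited unnormalised counts, as whole numbers for each gene symbol. STAR, HTSeq and the builds danRer7 and Zv9 are named in the submitters' processing notes. Their versions, the annotation and whether strand was used were not stated, so reads of overlapping and antisense genes may be mixed. The 5 summary rows for reads not assigned to a gene held 22.1% to 28.1% of each library's file and were left out.

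Counts were filtered with filterByExpr, scaled with TMM and tested with the edgeR 4.0.16 quasi-likelihood test with robust fitting in R 4.3.3, mutant against wild-type, with no block, and Benjamini-Hochberg adjustment over all genes at 0.05. The script was tested on simulated data. There edgeR recovered 34.3% of 67 genes changed 2-fold and 95.5% of 67 genes changed 4-fold, with 10 false calls. These shares hold for the simulated spread only. Alternatives were DESeq2 1.42.0, limma 3.58.1 (voom), other scalings and filters, a replicate block and single libraries left out. CPM values use the TMM-scaled library sizes, and the log2 CPM of profiles has a prior count of 2. The genes and lists were chosen with earlier results of these data known. Named are the 6 genes, all genes found of the apelin and angiopoietin lists except 1 that is not reported here, the 6 tip cell genes with the most reads and the 4 with the smallest p, and the 3 closest profiles of each gene. Of 204 list entries, 183 matched by symbol, 7 by a synonym of the assembly GRCz12tu and 14 did not match. Coordinates and sequences were not used here. Plots were drawn with matplotlib 3.10.9.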

Additional observations from a re-analysis of the deposited data

How the results depend on the processing

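Calls over all genes stayed at 0 in edgeR with RLE factors, upper-quartile factors, library totals, other filters, no robust fitting, the replicate block or a library left out, in DESeq2 and in limma-voom. The fit scaled by the endothelial marker sum covered 19446 genes, but its calls over all genes were not counted. At an unadjusted p under 0.05 there were 305 genes in edgeR, 358 in DESeq2 and 325 in limma-voom, and 232 to 929 with a library left out. Of 95 alternative values for the 6 genes, 91 kept the sign of the main value and 4 had the other. All 4, in aplnra, aplnrb and angpt2a, came with a library left out, and the cause was not tested. The other kinds of alternative refit the same 6 libraries, so the signs kept there do not count as separate support. With single libraries left out, apln ranged from -0.64 to -0.12, aplnra from -0.82 to 0.12, aplnrb from -0.60 to 0.022, esm1 from -0.41 to -0.11, angpt1 from -0.61 to -0.18 and angpt2a from -0.21 to 0.63, and angpt2a was -0.098 without wild-type 3. The strict filter, a mean of 5 CPM, left angpt2a without a value. With the replicate block 0 genes were called (523 at an unadjusted p under 0.05), and the values were -0.35 for apln, -0.29 for aplnra, -0.31 for aplnrb, -0.27 for esm1, -0.44 for angpt1 and 0.20 for angpt2a. The lowest adjusted p with the block was 0.0535 (edgeR). Deviations of same-numbered libraries correlated at 0.0598, 0.0211 and 0.140 across genes. Of the 6 libraries, 2, wild-type 1 and mutant 2, had their best match under another number, and the rest under their own. The numbers were not taken as pairs because the labels tie them to nothing shared. The counts of genes fitted lower under each alternative were added after the data were seen. The depth of apela and angpt2b limits what their intervals can show.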
